A study of Mus musculus with 4 samples.

Results

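The Ikaros family is a group of 5 zinc-finger transcription factor genes: Ikzf1 (Ikaros), Ikzf2 (Helios), Ikzf3 (Aiolos), Ikzf4 (Eos) and Ikzf5 (Pegasus). The members were taken by name, though with earlier results of these data known. All 5 were found among the 41388 genes of the deposited tables. RNA-seq was done on Mnk3, a line of mouse cells akin to ILC3 (innate lymphoid cells of group 3), which sit in tissues and are known for IL-22 and IL-17. Untreated cells gave 2 libraries (control 1 and control 2), and 2 more came from cells that had received IL-1b and IL-23, each at 10 ng/ml, for about 16 h (stimulated 1 and stimulated 2). In both groups the library called 1 has rep1 in its title and the library called 2 has no number there. Total RNA was freed of ribosomal RNA before sequencing, and all libraries come from 1 cell line. Whether libraries of the same group stem from different cultures is not stated, and p-values then cover only the spread among the 4 libraries, and it may be technical. The libraries numbered alike also shared differences that the treatment does not set. Gzma, a cytotoxic granule gene, had 193 counts in control 1 and 320 in stimulated 1, and 0 in control 2 and stimulated 2. Prf1, which encodes perforin, had 178 and 338 counts in the libraries numbered 1, against 7 and 8 in those numbered 2. These genes were singled out after their values were seen, and their part in the results was not tested. In bulk RNA, fewer cells of a type and less RNA per cell cannot be told apart.

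Ikaros proteins bind DNA through zinc fingers near the N-terminus and pair with one another through a second set of fingers at the C-terminus. They mostly act by bringing chromatin complexes such as the nucleosome remodelling and deacetylase complex (NuRD) to lymphoid genes, and are known for setting lymphocyte fate and for restraining genes such as Il2. Ikaros and Aiolos are broadly made in lymphocytes, Helios and Eos are best known from regulatory T cells, and Pegasus is the most distant relative.

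What joins the family can be read in its coding sequences. A window of 84 coding bases (28 codons) was slid along Ikzf1, and the position with the most bases matching the best windows of the other 4 genes was kept. It lies in the C-terminal fingers by which the proteins pair. The lines below show it for Ikzf1, for Ikzf2, which fell most, and for Ikzf5, the most distant relative. Capitals mark the 43 bases that all 5 genes share, and the sequences are those of GENCODE M21 transcripts on GRCm38.

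Ikzf1 (chr11:11769417-11769500, plus strand): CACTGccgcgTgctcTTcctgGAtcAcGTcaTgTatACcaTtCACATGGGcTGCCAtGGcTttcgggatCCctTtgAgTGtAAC
Ikzf2 (chr1:69538843-69538926, minus strand): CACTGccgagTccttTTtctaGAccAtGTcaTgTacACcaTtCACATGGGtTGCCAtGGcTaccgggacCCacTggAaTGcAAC
Ikzf5 (chr7:131391712-131391795, minus strand): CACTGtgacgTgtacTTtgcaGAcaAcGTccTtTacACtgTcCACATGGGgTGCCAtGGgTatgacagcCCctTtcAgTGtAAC

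Over this window Ikzf2 matched Ikzf1 at 67 of 84 bases (79.8%) and Ikzf5 matched it at 57 (67.9%). No stretch of 50 bases was shared by the annotated transcripts of any pair of members. Ikzf2 and Ikzf4 shared 32 bases of a simple repeat. Reads of 50 bases or more thus belong to a single member, but protein forms cannot be told apart from these tables, which give 1 count per gene. GENCODE M21 lists 6 protein-coding transcripts for Ikzf1, 7 for Ikzf2, 1 for Ikzf3, 3 for Ikzf4 and 6 for Ikzf5.

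The family was not evenly expressed. Levels of different genes are compared as RPKM, here CPM scaled by TMM (a factor that evens out library composition) and divided by the gene's length in kilobases. Ikzf1 was the highest member in all 4 libraries, at 48.1 and 56.7 RPKM in controls 1 and 2. The stimulated libraries 1 and 2 had 34.6 and 33.8. This put its mean above 91.0% of tested genes in the controls and above 82.8% in the stimulated cells. Ikzf3 came next at 13.9 and 11.9 RPKM in the controls, against 12.0 and 10.6 after stimulation. In the controls the order went on with Ikzf2 (5.10 and 7.08 RPKM) and Ikzf5 (3.57 and 5.57), whose ranges over the controls overlapped, though within each control Ikzf5 was the lower, at 0.700 and 0.787 times Ikzf2. In the stimulated libraries Ikzf5 (4.42 and 5.44 RPKM) stood above Ikzf2 (0.419 and 0.735) with no overlap. Ikzf4 was near silent, with 3 and 1 counts in the controls, against 4 in each stimulated library.

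**Figure D1:**
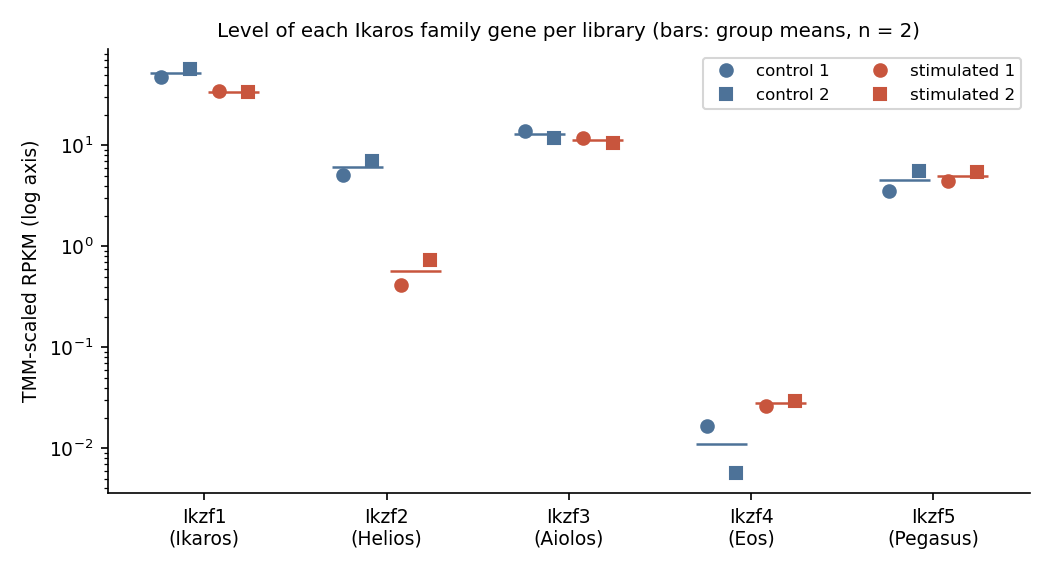
TMM-scaled RPKM (log axis) of the 5 family genes in each library; circles and squares are libraries 1 and 2 of a group and bars are group means (n = 2). Ikzf1 is highest throughout, Ikzf2 drops from 5.10 and 7.08 to 0.419 and 0.735 RPKM, and Ikzf4 stays below 0.03 RPKM.

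Helios and Ikaros transcripts were lower after IL-1b and IL-23, and no tested member was called higher. Of the 4 members with enough counts to be tested, 2 fell and 2 did not pass the edgeR quasi-likelihood test at an adjusted p under 0.05. Among all 13838 genes tested, 18.3% were called lower and 17.5% higher, 35.8% in all, so a call is common in these data. The groups did not overlap for the 2 members that fell, and 36.3% of all tested genes were lower without overlap. Counts of 2 in 4 are too small to be read against these shares. None of these 4 was higher in DESeq2 or limma-voom either, and none had an unadjusted p under 0.05 in that direction. Changes are given as log2 of stimulated over control ± SE, an approximate SE taken from the F statistic of the test. CPM are scaled by TMM and given as mean ± SD with n = 2.

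Helios had the steepest fall of the family. Ikzf2 (ENSMUSG00000025997, chromosome 1 from 69531214 to 69687245 on the minus strand in the count tables) had 1784 and 2406 counts in controls 1 and 2. Stimulated 1 held 123 and stimulated 2 held 195. As CPM these were 59.2 and 82.2 against 4.87 and 8.54. Both stimulated libraries lay far below both controls, and within each group library 2 was the higher. The mean went from 70.7 ± 16.3 to 6.70 ± 2.59 CPM, 10.5-fold lower, with 9.48% of the control level left. The log2 change was -3.40 ± 0.32 (edgeR adjusted p = 0.00105). It was the 88th lowest change of the 13838 tested, in a set of 149 genes (1.08%) that passed with a log2 change of -3 or below. With any 1 library left out the change ranged from -3.83 to -3.05, and over the 13 alternatives the adjusted p was at most 0.00209.

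Counts of the noncoding genes annotated within the span of Ikzf2 were also low after stimulation. These genes were singled out after their values were seen. Gm29114, an antisense noncoding gene on the plus strand that overlaps 144 bases of Ikzf2 exons, had 13 and 17 counts in the controls, against 0 and 2 in the stimulated libraries. It fell by 3.46 ± 0.91 on the log2 scale (edgeR adjusted p = 0.0252), a call lost in DESeq2 (0.0697), without control 2 (0.079) and without stimulated 1 (0.0994, change -2.47), and the change was -6.84 without stimulated 2. The group counts of 30 and 2 correspond to a 12.1-fold lower level with a 95% counting interval of 3.08 to 105. Gm28112 and Gm29112, annotated inside introns of Ikzf2 on its own strand, overlap none of its exons and had too few counts for the test. Gm28112 had 10 and 5 counts in the controls, against 0 in both stimulated libraries. It was 4.05-fold lower when the stimulated group is set to a floor of 3 counts. Its 95% counting interval, which also takes in the error of the control counts, starts at 2.90-fold. Gm29112 had 8 and 2 counts against 0 and 0, 2.70-fold lower at that floor, with an interval that starts at 1.81-fold. The sources used here do not say if strand was used in counting, and reads of Ikzf2 and Gm29114 cannot be told apart where they overlap. In total RNA, reads of Gm28112 and Gm29112 also cannot be told apart from unspliced Ikzf2 RNA. Their counts are thus not separate from those of Ikzf2. Floors and intervals here reflect counting error alone.

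**Figure D2:**
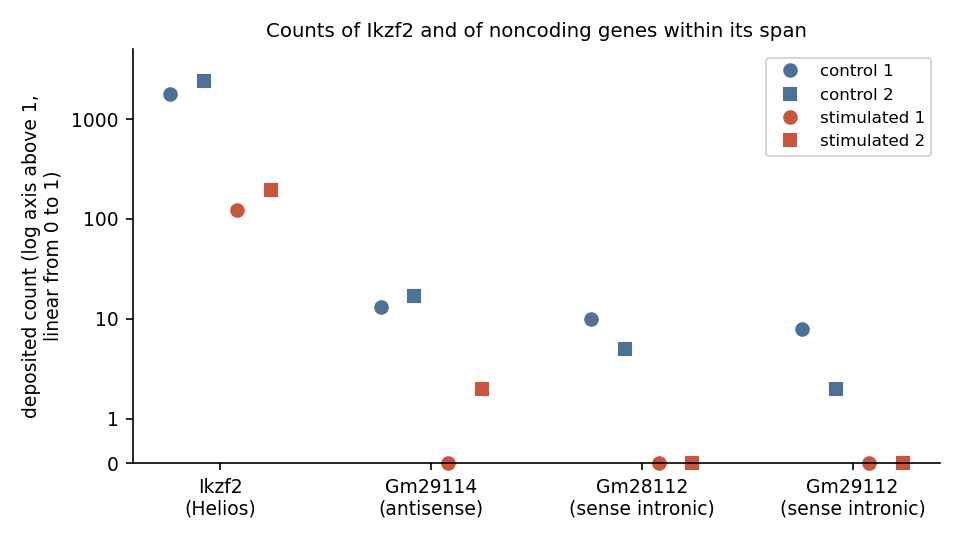
Deposited counts (log axis above 1, linear from 0 to 1) of Ikzf2 and of 3 noncoding genes annotated within its span, by library. Every stimulated library lies below every control for each of the 4 genes, with 0 counts in 5 of the 6 stimulated values of the noncoding genes.

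Ikaros fell less. Ikzf1 (ENSMUSG00000018654, chromosome 11 from 11685003 to 11772926, plus strand) had 8371 and 9587 counts in the controls, against 5052 and 4459 in the stimulated libraries. Its CPM were 278 and 327 against 200 and 195, so the stimulated libraries were close to each other and below both controls. The mean fell from 303 ± 35.2 to 198 ± 3.41 CPM, 1.53-fold lower, a log2 change of -0.61 ± 0.15 (edgeR adjusted p = 0.0183). The call was lost without control 2 (0.0775, change -0.49), without stimulated 1 (0.0658, change -0.63) and without stimulated 2 (0.0813, change -0.57), and held in the other 10 alternatives. Gm12000, a noncoding gene antisense to Ikzf1 with no exon overlap, had 82 and 46 counts in the controls, against 27 and 37 in the stimulated libraries, and its change of -0.68 ± 0.40 did not pass (edgeR adjusted p = 0.226).

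Aiolos was not detectably changed. Ikzf3 (ENSMUSG00000018168, chromosome 11 from 98464902 to 98546031, minus strand) had 122 and 104 CPM in the controls, against 105 and 92.9 in the stimulated libraries. The groups overlapped, with stimulated 1 just above control 2. The log2 change was -0.19 ± 0.15 (edgeR adjusted p = 0.354), and it was -0.30 to -0.08 over the 13 alternatives, none of which passed.

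Pegasus also gave no call. Ikzf5 (ENSMUSG00000040167, chromosome 7 from 131388652 to 131410521, minus strand) had 17.4 and 27.2 CPM in the controls, against 21.6 and 26.6 in the stimulated libraries. Both stimulated values lay between the controls. The log2 change was 0.11 ± 0.24 (edgeR adjusted p = 0.756), and its sign turned without control 1 (-0.18) and without stimulated 2 (-0.02).

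Eos stayed at the edge of detection. Ikzf4 (ENSMUSG00000002578, chromosome 10 from 128630843 to 128645991, minus strand) had 4 counts over the controls and 8 over the stimulated libraries, a 2.47-fold ratio whose 95% counting interval runs from 0.662 to 11.2. A difference was not detectable at this depth.

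**Figure D3:**
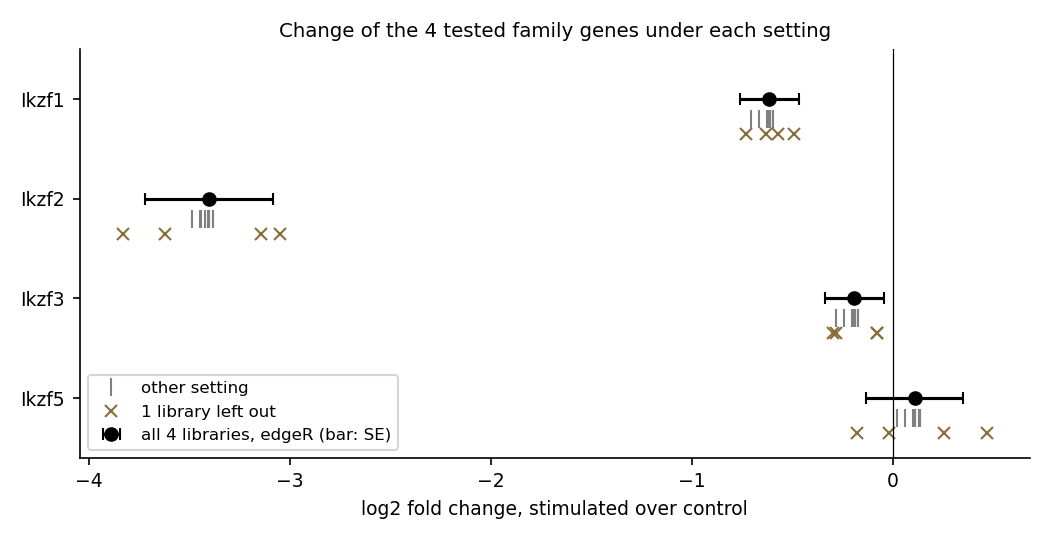
Log2 fold change of stimulated over control for the 4 tested members: black points are edgeR estimates from all 4 libraries with SE, grey ticks other settings and crosses fits with 1 library left out. Ikzf2 stays between -3.83 and -3.05, Ikzf1 between -0.73 and -0.49, and Ikzf5 falls on both sides of 0.

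The make-up of the family also differed between groups. Their summed level was 70.6 and 81.3 RPKM in the controls, against 51.5 and 50.6 in the stimulated libraries. Helios made up 7.22% and 8.71% of this sum in the controls, against 0.814% and 1.45% after stimulation, a difference of -6.83 percentage points, and of -11.8 when gene length is not taken into account. Ikaros kept the largest share in all 4 libraries, 68.1% and 69.8% against 67.2% and 66.8%, but this difference of -1.90 points turned to 0.91 without length and was -1.06 without control 2. Aiolos held 19.6% and 14.7% in the controls, against 23.3% and 20.98% in the stimulated libraries, and Pegasus 5.05% and 6.86% against 8.59% and 10.7%. The groups did not overlap for these length-scaled shares, but with 2 libraries against 2 the exact two-sided permutation test gave p = 0.333 for each, which is the smallest it can give. Shares of one sum also move together, so they are not separate results. Per library, Ikzf1 stood at 9.43 and 8.01 times the RPKM of Ikzf2 in the controls and at 82.6 and 46.0 times in the stimulated libraries. Between Ikzf1 and Ikzf3 the ratio was 3.46 and 4.75, against 2.89 and 3.18.

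**Figure D4:**
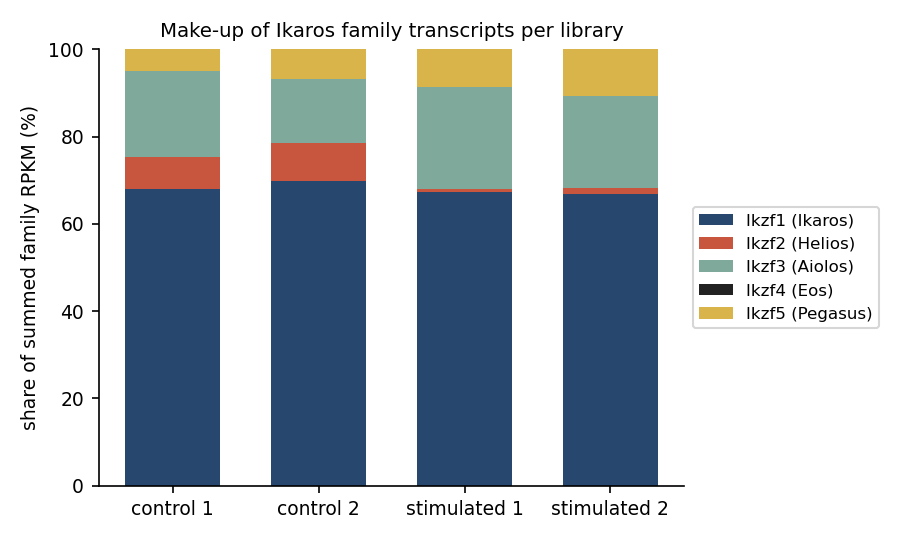
Share of each member (%) in the summed TMM-scaled RPKM of the 5 genes, for each library. The Helios segment is 7.22% and 8.71% in the controls, against 0.814% and 1.45% in the stimulated libraries, and that of Ikaros is 66.8% to 69.8% throughout.

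Promoter windows (250 bases before to 50 after a RefSeq start, GRCm38.p6) were on hand for Ikzf1 and Ikzf5. They are shown because Ikzf1 fell and Ikzf5 did not pass, and IL-23 is known to signal through STAT proteins. Both strands were searched for TTCNNNGAA, the core read by STAT dimers, for the AP-1 site TGACTCA, for the Ikaros core TGGGAA and for a simplified kB site of NF-kB. None of these patterns overlapped another in the windows. Ikzf1 has a start in a GC-rich window (81.3% G and C) with no match, and a second start, printed here, with 49.0% G and C. Capitals mark the match to TTCNNNGAA.

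Ikzf1, second start (chr11:11689927-11690226, plus strand): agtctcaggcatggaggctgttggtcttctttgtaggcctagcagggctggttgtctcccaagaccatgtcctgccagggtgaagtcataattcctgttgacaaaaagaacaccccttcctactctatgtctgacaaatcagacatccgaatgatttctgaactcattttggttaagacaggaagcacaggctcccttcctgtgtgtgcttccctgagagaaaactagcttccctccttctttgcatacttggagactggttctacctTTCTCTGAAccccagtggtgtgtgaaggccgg
Ikzf5 (chr7:131410429-131410728, minus strand): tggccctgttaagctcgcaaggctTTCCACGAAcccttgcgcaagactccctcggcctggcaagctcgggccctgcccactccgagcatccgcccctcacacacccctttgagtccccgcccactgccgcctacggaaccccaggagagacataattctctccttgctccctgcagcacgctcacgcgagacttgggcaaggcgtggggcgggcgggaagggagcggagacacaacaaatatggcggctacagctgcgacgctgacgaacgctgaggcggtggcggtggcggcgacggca

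TTCNNNGAA occurred once in each of these windows and in 8.30% of the 32851 promoter windows of the table. The AP-1, Ikaros and kB patterns were in none of the 3 family windows, and in 5.20%, 25.6% and 1.47% of all windows. A match of letters is a description and not a binding site.

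Other genes with nearly the same profile over the 4 libraries were sought for each tested member. Likeness was the Euclidean distance between log2 CPM centred on each gene's mean, among 9437 genes with a mean of at least 5 CPM and an established symbol. With only 4 libraries in 2 groups, many genes share a profile. Ikzf2 was closest to Apol9b (distance 0.197, log2 change -3.22), B3galt5 (0.246, -3.15) and Sdc1 (0.311, -3.72). Apol9b belongs to a family of close copies whose reads may be shared, B3galt5 encodes a galactosyltransferase and Sdc1 the proteoglycan syndecan-1. Ikzf1 was closest to Sgpl1 (0.0168, -0.63), which encodes the sphingosine-1-phosphate lyase, to Elf1 (0.0318, -0.60), an ETS transcription factor gene of lymphocytes, and to Paip2 (0.0439, -0.65), a repressor of translation. These 3 were picked for likeness to Ikzf1 over these same libraries. That they behave as Ikzf1 does when a library is left out is thus no separate result. Ikzf3 was closest to Stk35 (0.00479), Rnf8 (0.0244) and Anks3 (0.0322). Ikzf5 was closest to E2f6 (0.0274), Daam1 (0.0393) and Smim10l1 (0.0491). None of these last 6 genes passed.

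The chromatin machinery that Ikaros proteins recruit had genes called in both directions. Of 14 NuRD subunits, all tested, 2 rose and 2 fell, leaving 10 that did not pass, while 35.8% of all tested genes were called. The counts were 1 higher and 4 lower under total-count as under upper-quartile scaling, and 1 to 2 in each direction with a library left out. The median log2 change was -0.03, against -0.02 over all genes tested. Hdac2, a histone deacetylase, rose from 174 ± 21.9 to 295 ± 24.5 CPM (0.76 ± 0.16, edgeR adjusted p = 0.0102). Mta1 fell by 0.63 ± 0.13 on the log2 scale (edgeR adjusted p = 0.0108, and 0.0639 without stimulated 1). Chd3, a remodelling ATPase, fell by 0.53 ± 0.17 (edgeR adjusted p = 0.0449), a call lost in 4 of 13 alternatives, among them without control 1 and without stimulated 2. Rbbp7, a histone chaperone, rose by 0.46 ± 0.15 (edgeR adjusted p = 0.0462), a call lost in 7 of 13, including each in which a library was left out. Chd4, the main ATPase of the complex, had 864 ± 32.6 and 883 ± 57.9 CPM (0.03 ± 0.15), and Mta2 had 0.38 ± 0.16; neither passed.

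Of 8 other chromatin partners (Sin3, CtBP, BRG1 and Polycomb genes), 7 were tested and 0 passed in edgeR, with 1 at an unadjusted p under 0.05 and 0 in both DESeq2 and limma-voom. Over all genes 35.8% were called, and 7 genes are few to read against that share. Their median change was 0.22. The most abundant of them were the co-repressor gene Ctbp1 at 0.05 ± 0.14 and the Polycomb gene Suz12 at 0.34 ± 0.37.

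Ikaros and Aiolos are known substrates of the cereblon ubiquitin ligase when certain drugs are bound, and Ikaros is known to be phosphorylated by casein kinase 2 and dephosphorylated by protein phosphatase 1. Of 11 genes for these enzymes, 10 were tested, 3 rose and 1 fell, with a median change of 0.30. These 4 calls in 10 are close to the 35.8% over all genes. Rbx1, the RING subunit of cullin ligases, rose from 104 ± 4.61 to 182 ± 15.9 CPM (0.81 ± 0.14, edgeR adjusted p = 0.00547). Ppp1cb, a catalytic subunit of protein phosphatase 1, rose from 434 ± 98.0 to 816 ± 42.1 CPM (0.91 ± 0.19, edgeR adjusted p = 0.0115). Csnk2a2, a catalytic subunit of casein kinase 2, rose by 0.61 ± 0.16 (edgeR adjusted p = 0.0245), a call lost with total-count scaling, without control 2 and without stimulated 2. The scaffold gene Cul4a went down from 117 ± 0.1403 to 71.7 ± 6.997 CPM (-0.71 ± 0.14, edgeR adjusted p = 0.00855, and 0.0561 without stimulated 2). Crbn, which encodes cereblon, had -0.33 ± 0.15 (edgeR adjusted p = 0.137), Ddb1 had 0.30 ± 0.19 and Csnk2b 0.39 ± 0.16, and these 3 did not pass. With a library left out, Crbn ranged from -0.43 to -0.21, Ddb1 from 0.07 (without stimulated 1) to 0.52 and Csnk2b from 0.24 (without control 2) to 0.56. Ppp1ca is listed at 0 in all 4 libraries, and whether its reads could be counted was not checked.

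Genes known as targets of Ikaros factors in lymphocytes moved in both directions. Of 21 such genes, 11 were tested, 4 rose, 3 fell and 4 did not pass. Over all genes tested, 17.5% were called higher and 18.3% lower. The median change was -0.97, that of Foxp3, which did not pass, while the median over all genes was -0.02. The list is small and was drawn up with earlier results of these data known. Its counts and median are thus too weak to be read against all genes. The cytokine genes Ifng and Il22 rose by 8.75 ± 0.26 and 8.81 ± 0.46, from means of 0.168 and 2.72 CPM in the controls. Myc rose by 1.58 ± 0.23, and Il2, a classical gene under Ikaros and Helios repression in T cells, rose by 2.66 ± 0.62 (edgeR adjusted p = 0.0161, lost in DESeq2, without control 1 and without stimulated 1) but only to 0.659 ± 0.188 CPM. Cd4 fell by 2.93 ± 0.35, from only 3.98 ± 0.796 to 0.516 ± 0.110 CPM. Bcl6 (-1.33 ± 0.19) and Tbx21, which encodes T-bet (-1.33 ± 0.20), were lower too. Dtx1, a Notch pathway gene, had -2.34 ± 1.22 (edgeR adjusted p = 0.257) and -0.67 without control 1, and Ahr had 0.00 ± 0.15. Il7r had -3.08 ± 0.79 and did not pass (edgeR adjusted p = 0.0654), though it did in 9 of 13 alternatives, among them without stimulated 1 and without stimulated 2. The 10 that were not tested include Rag1, Rag2, Dntt, Igll1 and Vpreb1, genes of early lymphocytes. Il22, Il7r and Ahr also stand in the ILC3 marker list, and Tbx21 in that of type 1 ILC. No measurement here links any of these changes to the level of a family member.

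**Figure D5:**
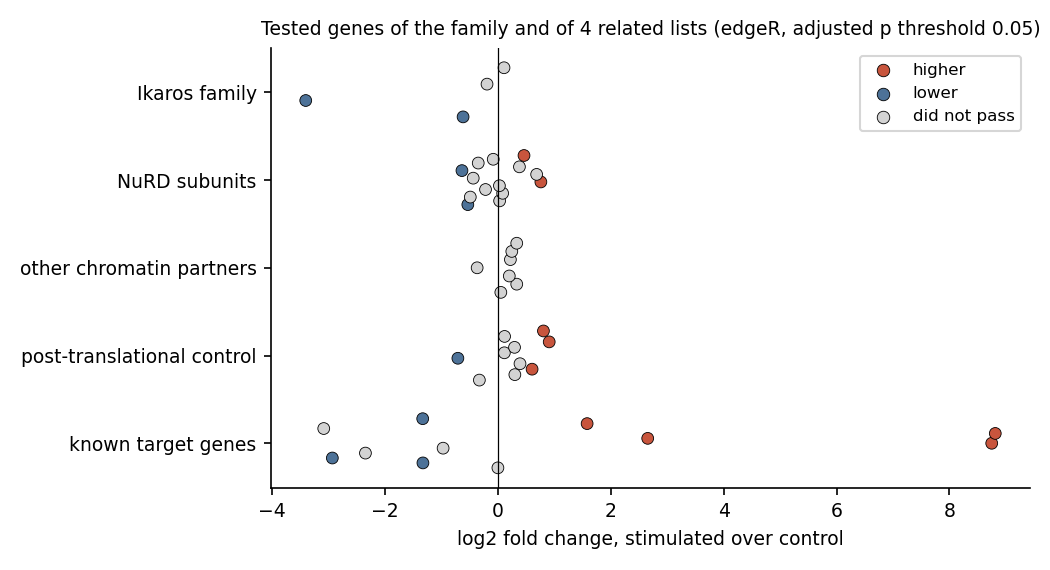
Log2 fold change of the tested genes of the family and of 4 related lists; each point is 1 gene, coloured by its edgeR call at an adjusted p threshold of 0.05. NuRD subunits and other partners lie within 1 of 0, while target genes spread from -3.08 to 8.81.

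The cell type was checked by markers. All 10 ILC3 markers were detected, and their summed level was 3932 to 4126 CPM in the controls, against 2145 to 2908.5 in the stimulated libraries, with 2 higher and 5 lower. The 8 T cell markers summed to 139 to 164 CPM in the controls, against 49.7 to 55.3 after stimulation. Lat (-2.10 ± 0.21) and Trac (-4.33 ± 0.51) were the 2 of 8 that passed. Trac was low, at 6.38 ± 3.15 CPM in the controls, against 0.316 ± 0.111 after stimulation. Lat made up most of the sum, at 102 and 116 CPM in the controls, against 20.8 and 30.2 after stimulation, while Cd3d had 18.0 and 9.77 CPM against 14.5 and 11.1. The 6 markers of type 1 ILC and NK cells summed to 324 to 375 and 130 to 157 CPM, with 2 lower. These were Klrb1c (164 and 182 CPM in the controls) and Tbx21 (112 and 145), which made up most of the sum. Eomes (0.49 ± 0.30), Gzma (0.99 ± 2.89), Prf1 (1.16 ± 2.30) and Ncr1 (-0.37 ± 0.49) did not pass. The 5 of type 2 ILC summed to 41.4 to 53.6 and 18.4 to 27.1 CPM, with 1 lower. That was Gata3, nearly the whole sum, at 40.6 and 53.1 CPM in the controls, against 17.2 and 25.8 after stimulation. The 6 B cell markers reached 3.79 CPM at most, with 1 lower. The 6 myeloid markers reached 4.20 CPM in the controls, against 11.8 after stimulation. Lyz2 and Cd14 were listed at 0 in all libraries, and whether their reads could be counted was not checked. The 1 myeloid marker called higher was Adgre1, at 0.0664 and 0 CPM in the controls, against 1.74 and 8.19 in the stimulated libraries. The other 3 that were tested did not pass. The sums for ILC3, T cells, B cells, type 1 ILC and NK cells and type 2 ILC moved with the fall of Ikzf2 and Ikzf1, and their part in it was not tested. Summed counts were 23047723 to 29078765 per library.

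Among genes listed within 200 kb of a member, calls went both ways, but the higher ones lay around Ikzf3, Ikzf4 and Ikzf5. Ikzf2 had 7 such neighbours, of which Gm29114 was the only one tested. Around Ikzf1, 6 of 10 were tested, all with negative changes, and 2 were called lower. These 2, Gm11998 and 1700042O10Rik, had means of only 1.97 and 0.860 CPM in the controls. Fignl1, the most abundant of the 6 at 206 CPM in the controls, had -0.25 ± 0.15 and did not pass. Around Ikzf3, 14 of 29 were tested, with 2 higher and 4 lower. Around Ikzf4, 23 of 29 were tested, with 5 higher and 3 lower, and around Ikzf5, 5 of 11 were tested, with 1 higher. Over all genes 35.8% were called in either direction.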

How the data were processed

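Total RNA depleted of ribosomal RNA was sequenced, per the labels' protocols. The submitters' processing notes name STAR, Subread and featureCounts. Their versions and roles, the genome build, the annotation and any use of strand were not stated there. The authors deposited, per the file headers, for each of 41388 genes a whole-number count, a CPM and an RPKM. The deposited CPM and RPKM equal the count scaled by the summed counts and by the listed length (checked on the values) and were not used further. Of the gene identifiers, 40340 are in GENCODE M21 (GRCm38), and 76.1% had the same start and end there.

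Counts were tested with the quasi-likelihood test of edgeR 4.0.16 (R 4.3.3, limma 3.58.1): filterByExpr, TMM, robust estimation, treatment as the only term, Benjamini-Hochberg over 13838 genes, threshold 0.05. The common biological coefficient of variation was 18.4%. The scripts were tested on simulated data. Alternatives were DESeq2 size factors, upper-quartile and total-count scaling, no filter beyond 1 count, 1 CPM in 2 libraries, DESeq2 1.42.0, limma-voom, no robust estimation, a replicate block, and each library left out. Shares were also computed with annotated lengths and without length.

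Members and lists were chosen with earlier results of these data known. Named genes are the members; of each related list, the 3 called genes of lowest adjusted p and the 2 uncalled ones of highest level; and for each tested member the 3 genes of nearest profile. Rbbp7, Csnk2a2, Crbn, Bcl6, Tbx21, Myc, Il2, Dtx1, Foxp3, Gzma, Prf1, Cd3d, Lat, Trac, Adgre1 and the noncoding genes within Ikzf1 and Ikzf2 were added after their values were seen. So were Klrb1c, Eomes, Ncr1, Gata3, Gm11998, 1700042O10Rik and Fignl1. Some items are not reported here.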

Additional observations from a re-analysis of the deposited data

How the results depend on the processing

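Ikzf2 kept its direction and its call under all 13 alternatives, and Ikzf3 kept its direction and did not pass in any. Calls over all genes numbered 2417 higher and 2533 lower, and 3986 and 4000 with the replicate block. With a library left out they ranged from 1593 to 2001 higher and 1665 to 2035 lower, the lowest without stimulated 1. The number of members lower was 1 to 2 and the change of Ikzf1 -0.73 to -0.49 with a library left out. Ikzf1 did not pass without control 2 (-0.49), stimulated 1 (-0.63) or stimulated 2 (-0.57), fits with fewer samples. Ikzf5 turned sign without control 1 (-0.18) and stimulated 2 (-0.02), and ranged from -0.18 to 0.47. Ikzf4 had 1.25 with no filter. The difference in the Helios share was -11.8 points with no length correction, and that in the Ikaros share 0.91 in place of -1.90 (-2.75 to -1.06 with a library left out), since Ikzf2 is the longest gene. Total-count scaling moved the median of all genes to -0.11.

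The replicate block takes its numbers from the titles. Deviations of same-numbered libraries correlated at r = 0.490 over genes, with 2 pairs, and no source states a pairing. Under the block no call of a member changed, but Mta2 (adjusted p = 0.0100), Suz12 (0.0113), Csnk2b (0.00165), Crbn (0.00772), Dtx1 (4.67e-54) and Il7r (8.60e-100) passed. NuRD subunits had 4 higher and 5 lower, other partners 2 and 1, post-translational genes 5 and 2, and target genes 6 lower. With total-count or upper-quartile scaling NuRD subunits had 1 higher and 4 lower, and without robust estimation 1 and 1. Cul4a left post-translational genes with 0 lower without stimulated 2.

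Uncalled genes near 0 turned sign in some settings, and the cause was not tested. Chd4 had -0.020 with upper-quartile and -0.061 with total-count scaling, and -0.036 to 0.12 with a library left out. Ctbp1 had -0.040 with total-count scaling and -0.044 to 0.17 with a library left out. Ahr had -0.048 with upper-quartile scaling, -0.0069 under the 1 CPM filter and -0.088 with total-count scaling, and -0.11 to 0.13 with a library left out. With a library left out, Suz12 ranged from -0.060 to 0.81, E2f6 from -0.18 to 0.44, Daam1 from -0.17 to 0.44 and Smim10l1 from -0.14 to 0.46.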
